A study of Mus musculus with 16 samples.

Results

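Claudins are the membrane proteins that set what passes between epithelial cells at the tight junction. RNA of 10 claudin genes (Cldn1, Cldn2, Cldn3, Cldn4, Cldn6, Cldn7, Cldn8, Cldn12, Cldn15 and Cldn23) was read in 16 libraries of mouse colon organoids, out of 54123 genes to which the transcript values were summed. The 10 were taken by name, with no threshold on their values, although earlier results of these data were known when they were chosen, and the 22 claudin genes outside the 10 are described at the end. Of these, 9 had enough counts to be tested, among 15289 tested genes. Cldn6, a claudin of embryonic epithelium, held 0 reads in all 16 libraries.

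In a tight junction, claudins of neighbouring cells meet as strands near the top of the lateral membrane. Claudin-2 and claudin-15 form paracellular pores that let cations and water through, and in the gut they are known for the passage of sodium. Claudin-1, claudin-3, claudin-4, claudin-7, claudin-8 and claudin-23 are counted as sealing or barrier-forming members. Claudin-12 is an atypical member that lacks the usual anchor to scaffold proteins.

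Organoids of proximal and distal colon carried lentiviral Cas9 with either a Scramble-sgRNA, which served as control, or a Cdx2-sgRNA, directed at the intestinal homeobox factor Cdx2. They were kept in WENR-plus medium, which supplies Wnt3a, EGF, Noggin and R-spondin 1, or in WENR-minus medium without these factors for the last 3 days of culture. This gave 8 groups of 2 libraries, which the methods call biological replicates from independent mice. Every group shared the same background: organoids of female mice at 8 weeks of age, heterozygous for a Cre-inducible Braf V600E allele that had not been activated and for a tdTomato reporter, in the fourth month of culture and after 2 days in WENR-plus. Single clones carrying frameshift mutations in both alleles gave rise to the Cdx2-sgRNA organoids, and no such step is stated for the Scramble-sgRNA organoids, so that clonal origin and Cdx2 loss cannot be told apart. With 2 libraries a group, p-values rest on the spread between replicate libraries pooled over the 8 groups, not on that of the compared groups alone.

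The 16 libraries held 12465194 to 18922143 estimated counts in all (median 16836530), and mitochondrial ribosomal RNA took 15.4 to 28.0% of them. The 6 epithelial markers (Epcam, Cdh1, Vil1, Krt8, Krt18 and Krt19) were detected in every library and summed to 3915 to 17621 CPM, that is TMM-scaled counts relative to library size. Fibroblast markers summed to at most 11.96 CPM and endothelial markers to at most 11.6 CPM. Immune markers summed to 6.56 to 25.8 CPM in the proximal Cdx2-sgRNA libraries and to at most 3.64 CPM in all others.

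Cdx2 RNA was read first as a check of the guide, although a frameshift need not change it. In proximal organoids Cdx2 stood at 203 and 151 CPM in Scramble-sgRNA and at 73.9 and 71.0 CPM in Cdx2-sgRNA in WENR-minus. In WENR-plus the proximal values were 142 and 127 CPM against 29.9 and 33.3 CPM. In distal organoids Cdx2 stood at 112 and 110 CPM in Scramble-sgRNA and at 126 and 86.1 CPM in the libraries labelled Cdx2-sgRNA in WENR-minus, and at 76.8 and 67.9 CPM against 62.3 and 50.2 CPM in WENR-plus. Cdx2 RNA fell with the Cdx2-sgRNA in proximal organoids, with log2 fold changes of -1.29 (WENR-minus) and -2.09 (WENR-plus; edgeR quasi-likelihood test, adjusted p = 0.000679 and 5.48e-05). In distal organoids the log2 fold changes were -0.07 and -0.36 (adjusted p = 0.876 and 0.857), so the RNA level does not show the loss in the distal Cdx2-sgRNA libraries. A gene is called changed, or said to rise or fall, where the adjusted p was below 0.05 and the log2 fold change exceeded 1 in size.

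The promoters of the pore genes are shown because Cldn15 and Cldn2 carry the main differences between the groups. Each is the 250 bases before the RefSeq gene start (GRCm38.p6), on the strand of the gene. The Cldn15 window is chr5:136967619-136967868 on the plus strand, and its last bases lie in an exon of the transcript Cldn15-202. The Cldn2 window is chrX:139800558-139800807 on the plus strand. Capitals mark the letters TTTAT, the core of the sites that Cdx factors are known to bind, or ATAAA, its reverse complement.
Cldn15: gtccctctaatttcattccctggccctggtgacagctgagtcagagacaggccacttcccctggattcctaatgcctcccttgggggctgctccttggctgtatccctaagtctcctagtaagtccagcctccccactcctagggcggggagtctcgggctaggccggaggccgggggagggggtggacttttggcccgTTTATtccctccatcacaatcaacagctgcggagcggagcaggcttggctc
Cldn2: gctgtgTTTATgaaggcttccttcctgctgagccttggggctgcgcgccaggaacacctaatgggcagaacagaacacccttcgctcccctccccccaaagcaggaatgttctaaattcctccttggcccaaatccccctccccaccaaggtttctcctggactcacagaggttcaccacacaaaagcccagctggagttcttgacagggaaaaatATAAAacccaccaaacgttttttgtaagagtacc
In Cldn15 the core lies 51 bases before the start. In Cldn2 it lies 244 bases before the start, and its reverse complement 34 bases before the start. That reverse complement is part of the letters TATAAAA, and whether Cdx2 binds there was not tested here. Of the 8 members with a promoter window, Cldn15 and Cldn2 were the 2 with the core on either strand. Counted by window, 2 of the 11 windows of these members held it. The core was present in 37.3% of 32851 mouse promoter windows of this length, so such a match is common, and it was searched after these windows had been read. The longer Cdx-type letters TTTATNG (9.81% of windows) and the TCF-type letters CTTTGAT (3.21% of windows), both also searched on either strand, were found in no member's window.

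Cldn3, Cldn7 and Cldn4 made up most claudin RNA. On the TPM scale, which relates reads to transcript length and to the whole library, the median levels over the 16 libraries were 308 TPM for Cldn3, 249 TPM for Cldn7 and 164 TPM for Cldn4. Cldn15 followed with a median of 59.2 TPM. Medians of 18.7 TPM for Cldn12, 15.8 TPM for Cldn2, 13.5 TPM for Cldn8 and 10.7 TPM for Cldn23 came next. Cldn1 did not exceed 0.768 TPM in any library. The 10 genes together ranged from 474 to 1751 TPM.

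**Figure D1:**
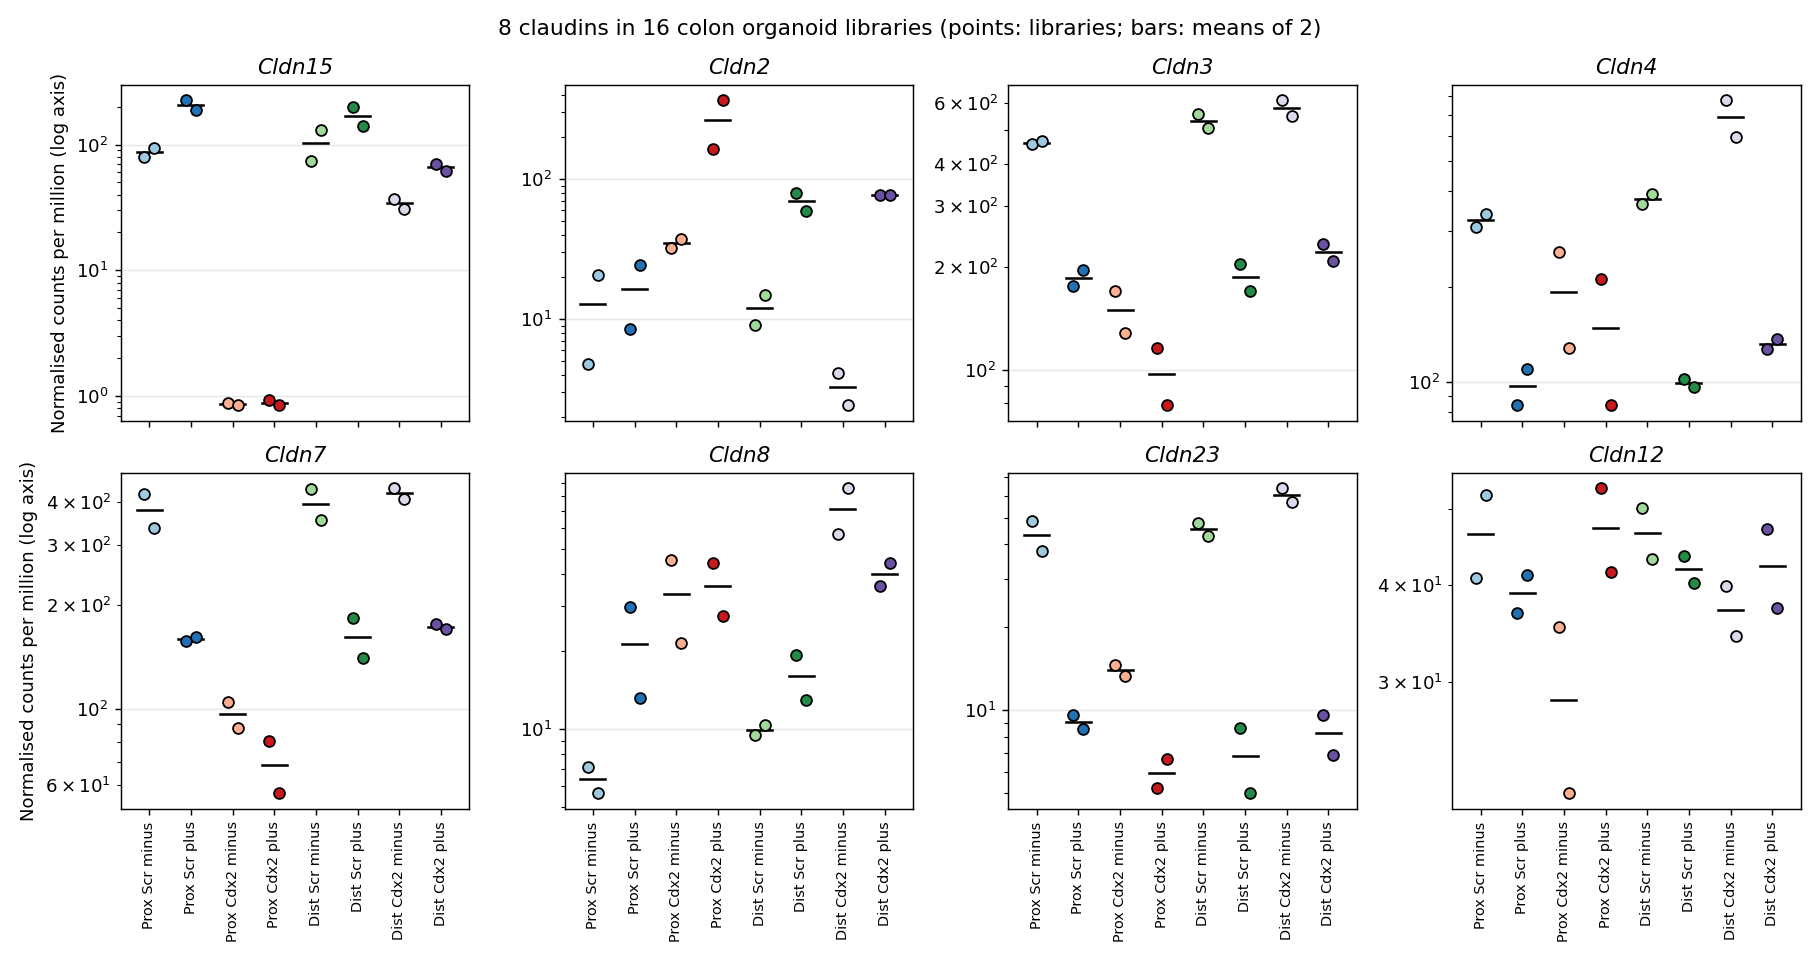
CPM (TMM-scaled, log axis) of 8 claudins in each of the 16 libraries; points are libraries and bars are means of 2. Cldn15 is below 1 CPM in the 4 proximal Cdx2-sgRNA libraries and at 30.9 CPM or more in every other library.

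Cldn15 showed the widest range of the family. Its group means spanned 237-fold on the CPM scale, against 80.7-fold for Cldn2, 11.2-fold for Cldn8 and 1.66-fold for Cldn12. The highest levels were those of the proximal Scramble-sgRNA libraries in WENR-plus (225 and 187 CPM) and of the distal Scramble-sgRNA libraries in WENR-plus (199 and 141 CPM), which overlapped and did not differ by the test (log2 fold change 0.28, adjusted p = 0.700). Distal Scramble-sgRNA libraries in WENR-minus followed with 73.5 and 131 CPM and overlapped the proximal ones with 79.4 and 93.9 CPM (log2 fold change -0.24, adjusted p = 0.589). Next came distal Cdx2-sgRNA libraries, at 70.0 and 61.7 CPM in WENR-plus and at 37.1 and 30.9 CPM in WENR-minus. The proximal Cdx2-sgRNA libraries stood lowest, with 12 and 16 reads in WENR-minus and 16 and 16 reads in WENR-plus, or 0.846 to 0.928 CPM.

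Cldn2 followed another order. It was highest in proximal Cdx2-sgRNA libraries in WENR-plus (163 and 367 CPM) and next in the distal libraries in WENR-plus, at 79.8 and 59.1 CPM with Scramble-sgRNA and at 76.9 and 77.3 CPM with Cdx2-sgRNA. The values of the distal pair of groups overlapped (log2 fold change 0.15, adjusted p = 0.999). Proximal Cdx2-sgRNA libraries in WENR-minus held 32.2 and 37.7 CPM. The remaining groups were low and mostly overlapped: 8.55 and 24.3 CPM in proximal Scramble-sgRNA in WENR-plus, 4.77 and 20.8 CPM in the same organoids in WENR-minus, 9.08 and 14.98 CPM in distal Scramble-sgRNA in WENR-minus, and 4.15 and 2.43 CPM in distal Cdx2-sgRNA in WENR-minus. In the proximal Scramble-sgRNA organoids, replicate 1 was below replicate 2 in either medium.

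**Figure D2:**
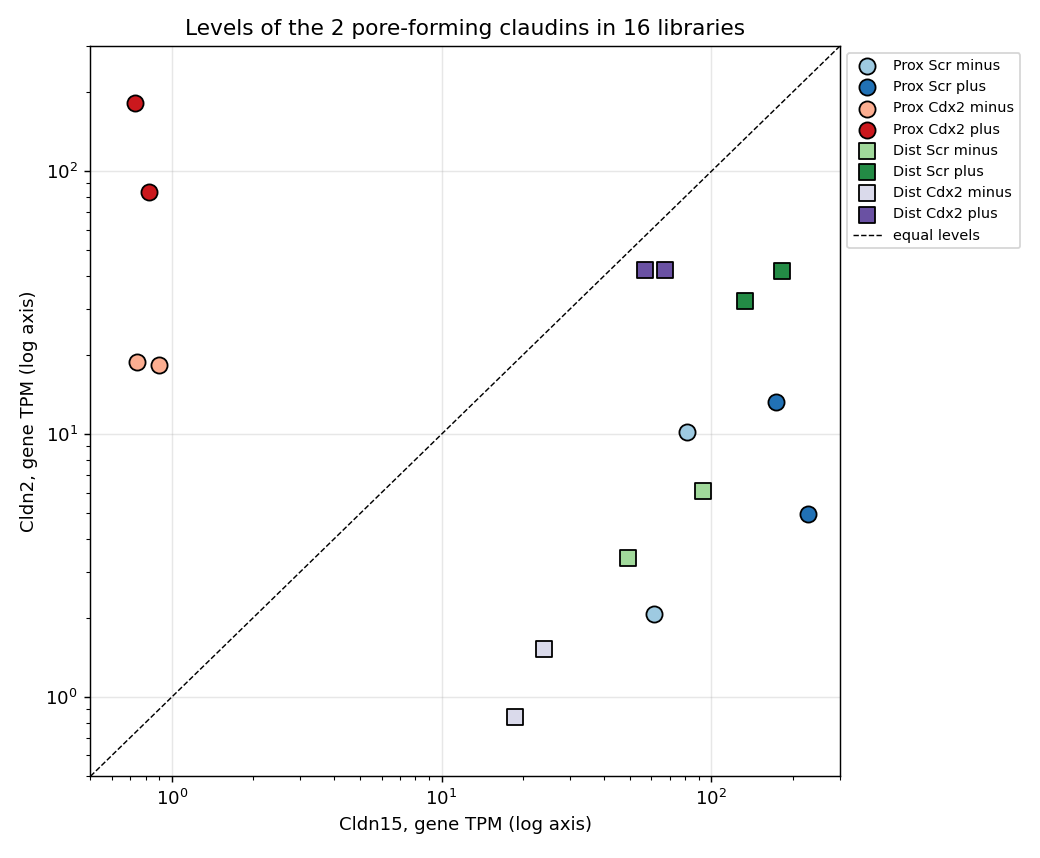
Gene TPM of Cldn2 against gene TPM of Cldn15 (both log axes), 1 point a library, coloured by group. The 4 proximal Cdx2-sgRNA libraries lie apart, with Cldn15 under 1 TPM and Cldn2 between 18.3 and 182 TPM.

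The ratio of the pore genes on the TPM scale separated the proximal Cdx2-sgRNA libraries from the rest. Cldn2 over Cldn15 reached 101 and 248 there in WENR-plus, stood at 20.4 and 25.3 there in WENR-minus, and was 0.0217 to 0.741 in the other 12 libraries.

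The first question was what Cdx2 loss did to the claudins in each region and medium. In proximal organoids in WENR-minus, Cldn15, Cldn7, Cldn23 and Cldn3 fell with the Cdx2-sgRNA and Cldn8 rose. These 5 of the 9 tested members stood against a background of 21.2% of all tested genes called in this comparison. The median log2 fold change was -1.19 for the members other than Cldn1, against -0.00 over all tested genes. Cldn1, a sealing claudin best known from skin and liver, lay near or below the floor of 3 reads in most libraries, so its fitted value stays out of the medians given here and in the other comparisons (with it, this median was -0.75). The fall of Cldn15 from 79.4 and 93.9 CPM to 0.891 and 0.846 CPM was 99.2-fold (log2 fold change -6.63, SE 0.35, adjusted p = 3.22e-07). Cldn7, which encodes a claudin spread along the lateral membrane of gut cells, went from 421 and 336 CPM to 105 and 87.6 CPM (log2 fold change -1.98, SE 0.21, adjusted p = 5.17e-05). Cldn3, a major sealing claudin of the colon, went from 456 and 464 CPM to 170 and 128 CPM (log2 fold change -1.63, SE 0.20, adjusted p = 0.000150). In these 3 genes the control and Cdx2-sgRNA libraries did not overlap. Cldn23, known from differentiated surface cells, went from 48.5 and 37.8 CPM to 14.6 and 13.3 CPM (log2 fold change -1.63, SE 0.25, adjusted p = 0.000681). Cldn8, a barrier claudin of the distal gut, was at 7.13 and 5.63 CPM in the controls and at 45.2 and 21.5 CPM in Cdx2-sgRNA (log2 fold change 2.38, SE 0.45, adjusted p = 0.00246). The groups were again apart for both genes, with the Cldn8 libraries of the Cdx2-sgRNA group differing more from each other than those of the controls.

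The 4 other tested members were not called there. Cldn12 had an adjusted p of 0.0388 at a log2 fold change of -0.71, below the size required, and without Cdx2-sgRNA replicate 1 it was called (-1.07, adjusted p = 0.00747). Cldn4, a receptor of a clostridial toxin and a sealing claudin, stood at 309 and 339 CPM against 257 and 127 CPM (log2 fold change -0.75, adjusted p = 0.157), with -1.32 (adjusted p = 0.0410) without Cdx2-sgRNA replicate 1 and -0.34 (adjusted p = 0.591) without Cdx2-sgRNA replicate 2. Cldn2 stood at 4.77 and 20.8 CPM against 32.2 and 37.7 CPM (log2 fold change 1.44, adjusted p = 0.107), and with the replicate number as a block it passed the test (log2 fold change 1.59, adjusted p = 0.0492), as it did by DESeq2 (1.502, adjusted p = 0.0424). Without Scramble-sgRNA replicate 2 it was 2.86 (adjusted p = 0.0158), and without Scramble-sgRNA replicate 1 it was 0.78 (adjusted p = 0.411). Cldn1 had at most 1 read in each of these libraries.

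Differentiation moved in the same comparison. The markers Muc2, Fabp2, Krt20 and Car1 summed to 11035 and 8000 CPM in the proximal Scramble-sgRNA libraries in WENR-minus and to 514 and 1587 CPM in the Cdx2-sgRNA ones. Muc2, Fabp2 and Car1 fell, whereas Krt20 stood at 995 and 580 CPM against 489 and 1572 CPM (log2 fold change 0.39, adjusted p = 0.610). Their part in the claudin differences was not tested, and in whole organoids fewer cells of a type cannot be told apart from less RNA per cell. The immune marker sum was also higher in these Cdx2-sgRNA libraries (25.8 and 15.9 CPM against 1.55 and 0.730 CPM), and its part was not tested. Of the 6 immune markers, 3 had more than 3 reads in each of these Cdx2-sgRNA libraries and 2 had enough counts to be tested. Which cells held this RNA was not tested.

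In proximal organoids in WENR-plus, Cldn15 and Cldn7 fell and Cldn2 rose with the Cdx2-sgRNA. These 3 of 9 stood against 15.9% of all tested genes called, with a median log2 fold change of -0.17 for the members other than Cldn1, which had 0 reads in these 4 libraries, and of -0.05 over all tested genes. Cldn15 went from 225 and 187 CPM to 0.928 and 0.846 CPM, a 231-fold fall (log2 fold change -7.85, SE 0.36, adjusted p = 1.87e-07). Cldn2 went from 8.55 and 24.3 CPM to 163 and 367 CPM (log2 fold change 4.02, SE 0.69, adjusted p = 0.00192). For both pore genes the groups were far apart, in opposite directions, and the call held whichever of the 4 libraries was left out. Cldn7 went from 157 and 162 CPM to 80.4 and 56.7 CPM (log2 fold change -1.22, adjusted p = 0.00166), and without replicate 2 of the proximal Cdx2-sgRNA libraries in WENR-plus its log2 fold change was -0.99 and the call was lost. Cldn3 stood at 175 and 196 CPM against 116 and 78.8 CPM (log2 fold change -0.93, adjusted p = 0.00621), short of the size required, and at -1.24 without Cdx2-sgRNA replicate 1. Cldn23 (log2 fold change -0.61, adjusted p = 0.107) and Cldn8 (0.74, adjusted p = 0.232) were not called in this medium. The differentiation markers summed to 392 and 549 CPM in the controls and to 131 and 235 CPM in Cdx2-sgRNA, where Muc2, Fabp2 and Car1 fell and Krt20 rose (log2 fold change 2.78, adjusted p = 0.00515).

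In distal organoids the same guide was accompanied by fewer calls. In WENR-minus, Cldn15 fell and Cldn8 rose, 2 of 9 members against a background of 5.25%, and the median of the members was 0.11 against 0.00 over all tested genes. Cldn15 went from 73.5 and 131 CPM to 37.1 and 30.9 CPM (log2 fold change -1.59, SE 0.26, adjusted p = 0.00589). The groups did not overlap, but the call was lost without replicate 2 of the distal Scramble-sgRNA libraries in WENR-minus (log2 fold change -1.11, adjusted p = 0.0510) and without replicate 2 of the distal Cdx2-sgRNA libraries in WENR-minus (-1.47, adjusted p = 0.0542). Cldn8 went from 9.46 and 10.3 CPM to 56.8 and 85.7 CPM (log2 fold change 2.85, SE 0.46, adjusted p = 0.00581), its highest level in the series, and lost its call without the same Scramble-sgRNA replicate 2 at an unchanged direction (log2 fold change 2.91, adjusted p = 0.0654). Cldn2 was at 9.08 and 14.98 CPM against 4.15 and 2.43 CPM (log2 fold change -1.87, adjusted p = 0.124 by edgeR and 0.0233 by DESeq2). Cldn3 was level between the groups, at 558 and 507 CPM against 612 and 551 CPM (log2 fold change 0.13, 95% interval -0.30 to 0.56). The differentiation markers summed to 7253 and 4559 CPM in the distal controls and to 11311 and 10158 CPM in the distal Cdx2-sgRNA libraries. By single marker, Fabp2 fell (log2 fold change -3.22, adjusted p = 0.0271) and Muc2, Krt20 and Car1 were not called (0.32 to 1.01, adjusted p = 0.0967 to 0.825).

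In distal organoids in WENR-plus, edgeR called 0 of 9 members, where 0.262% of all tested genes were called. At an unadjusted p under 0.05 there were 2 members and 973 of the 15289 tested genes, and DESeq2 called 1 member, Cldn15. The median was 0.19 against -0.01 over all tested genes. Cldn15 stood at 199 and 141 CPM against 70.0 and 61.7 CPM without overlap (log2 fold change -1.37, SE 0.25, adjusted p = 0.0561), just over the threshold. Cldn8 stood at 19.3 and 12.9 CPM against 35.8 and 43.8 CPM (log2 fold change 1.31, SE 0.43, adjusted p = 0.463).

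**Figure D3:**
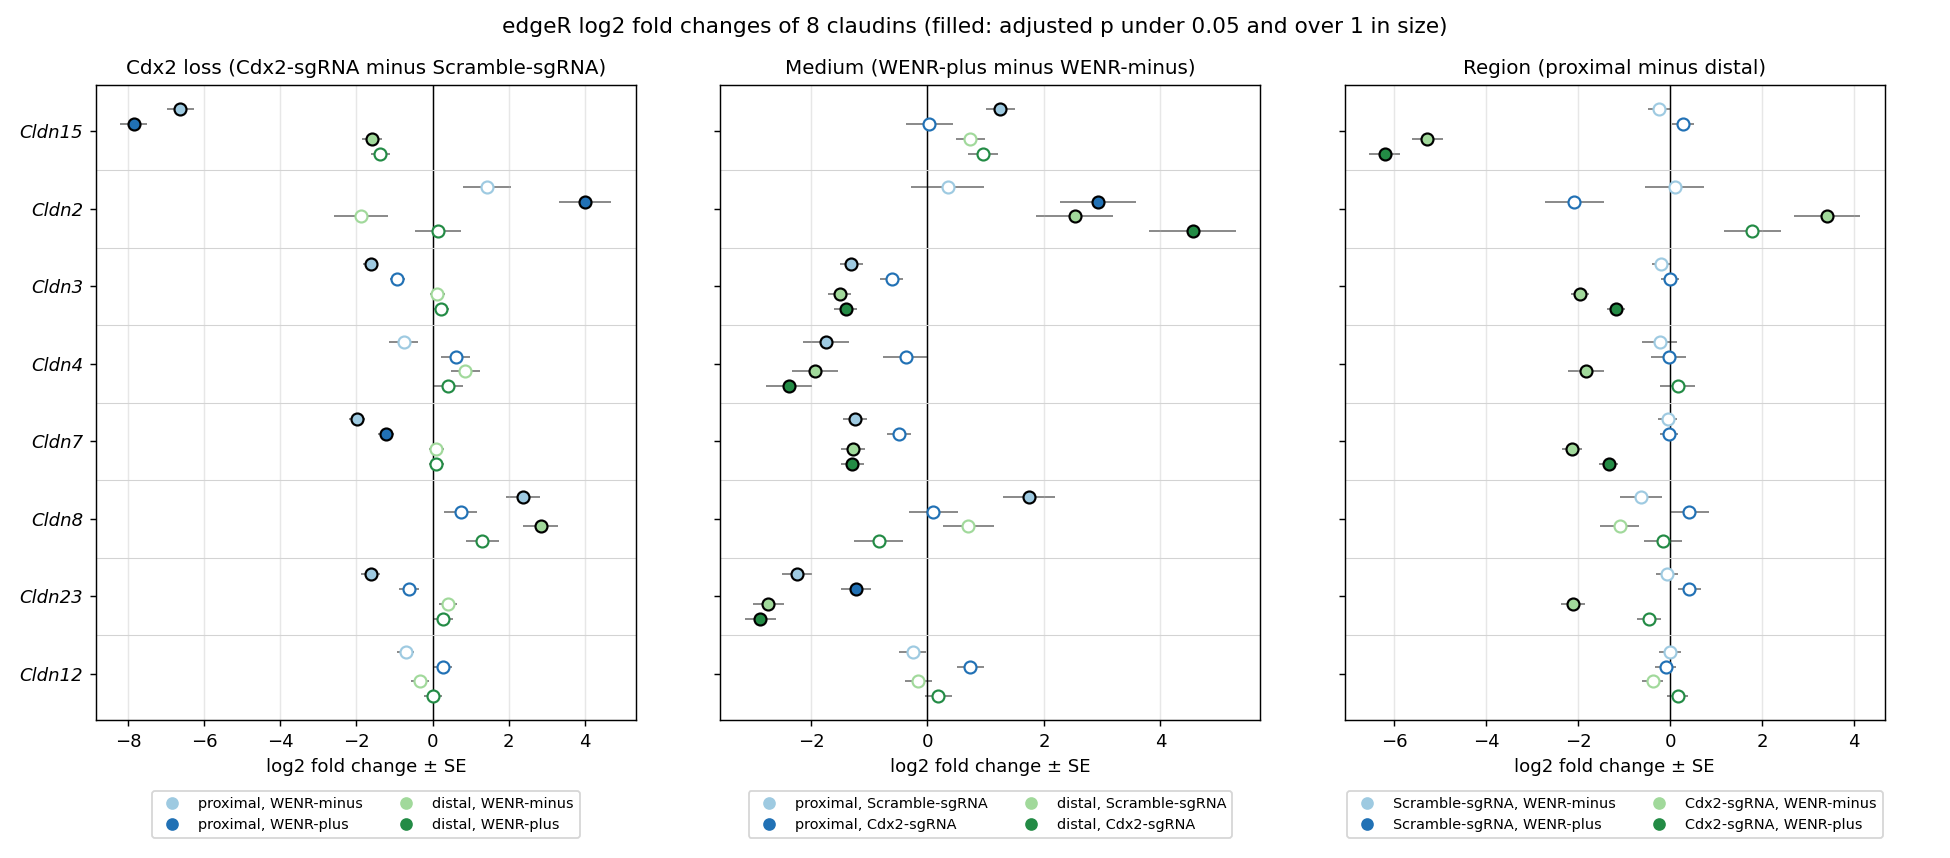
edgeR log2 fold changes ± SE of 8 claudins for Cdx2 loss and for the medium, by region; filled points passed the test at a size over 1. Cldn15 lies at -6.63 and -7.85 for Cdx2 loss in proximal organoids and between -1.59 and -1.37 in distal organoids.

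The difference between the regions was itself tested, by subtracting the log2 fold change for Cdx2 loss in distal organoids from the proximal one. In WENR-minus, 5 of 9 members were called against a background of 14.3%, and the median of these differences was -1.68 for the members and 0.00 over all tested genes. The difference was -5.04 for Cldn15 (SE 0.42, adjusted p = 2.19e-05), -2.08 for Cldn7 (SE 0.29, adjusted p = 0.000793), -2.04 for Cldn23 (SE 0.35, adjusted p = 0.00319) and -1.75 for Cldn3 (SE 0.28, adjusted p = 0.00195). All 4 were lower with the Cdx2-sgRNA in proximal than in distal organoids by more than their error. Cldn2 went the other way with a difference of 3.31 (SE 0.95, adjusted p = 0.0358), and this call was lost on leaving out any of 5 of the 8 libraries (adjusted p = 0.0691 to 0.127): replicate 1 of proximal Scramble-sgRNA, replicate 2 of proximal Cdx2-sgRNA, replicate 2 of distal Scramble-sgRNA and either replicate of distal Cdx2-sgRNA. Cldn4 was at -1.61 (adjusted p = 0.0622), and it was called with the replicate block (-1.64, adjusted p = 0.0466), by DESeq2 (adjusted p = 0.0189) and without proximal Cdx2-sgRNA replicate 1 (-2.17, adjusted p = 0.0213).

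In WENR-plus, 4 of 9 members were called for the same difference against a background of 4.98%. The median of the differences was -0.73, against -0.04 over all tested genes. Cldn15 had a difference of -6.48 (SE 0.42, adjusted p = 7.46e-06), which held whichever library was left out. The other 3 calls were less firm. Cldn2 had a difference of 3.87 (SE 0.89, adjusted p = 0.0287), with an adjusted p of 0.0624 to 0.105 on leaving out any of 6 libraries, that is all but replicate 2 of proximal Scramble-sgRNA and replicate 1 of proximal Cdx2-sgRNA. Cldn7 (-1.31, adjusted p = 0.0217) and Cldn3 (-1.17, adjusted p = 0.0329) each lost the call on leaving out either proximal Scramble-sgRNA replicate, proximal Cdx2-sgRNA replicate 2, distal Scramble-sgRNA replicate 2 or distal Cdx2-sgRNA replicate 1, with an adjusted p of 0.0613 to 0.0836 for Cldn7 and of 0.0658 to 0.111 for Cldn3.

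The second question was what the medium did, read as WENR-plus against WENR-minus within each region and guide. Among the barrier genes, Cldn3, Cldn7, Cldn4 and Cldn23 fell in WENR-plus in both Scramble-sgRNA cultures and in the distal Cdx2-sgRNA culture. The barrier gene Cldn8 went the other way in proximal Scramble-sgRNA organoids, where it rose (log2 fold change 1.75). Cldn2 rose in every culture but the proximal Scramble-sgRNA one. In proximal Scramble-sgRNA organoids 6 of 9 members were called, against 17% of all tested genes, with a median of -0.75 for the members other than Cldn1 (-1.25 with it) and of 0.06 over all tested genes. In proximal Cdx2-sgRNA organoids 2 of 9 were called, against 6.4%, with a median of -0.17 (-0.38 with Cldn1) and of 0.03. In distal Scramble-sgRNA organoids 5 of 9 were called, against 26.4%, with a median of -0.72 and of 0.11. In distal Cdx2-sgRNA organoids 5 of 9 were called, against 33.1%, with a median of -1.06 and of 0.10. The same WENR-minus libraries serve here and in the comparisons of Cdx2 loss, so these values are not independent of those above.

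Cldn3 fell from 456 and 464 CPM in WENR-minus to 175 and 196 CPM in WENR-plus in proximal Scramble-sgRNA organoids (log2 fold change -1.31, SE 0.20, adjusted p = 0.00101). It fell from 558 and 507 CPM to 204 and 170 CPM in distal Scramble-sgRNA (log2 fold change -1.51, adjusted p = 0.000204) and from 612 and 551 CPM to 233 and 207 CPM in distal Cdx2-sgRNA organoids (-1.40, adjusted p = 0.000168). None of these groups overlapped. Cldn3 in proximal Cdx2-sgRNA organoids stood at 170 and 128 CPM against 116 and 78.8 CPM (log2 fold change -0.62, adjusted p = 0.0613).

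Cldn7 followed Cldn3 closely. Its log2 fold changes were -1.25 in proximal Scramble-sgRNA (adjusted p = 0.00135), -1.28 in distal Scramble-sgRNA (adjusted p = 0.000558) and -1.29 in distal Cdx2-sgRNA organoids (adjusted p = 0.000336). With the Cdx2-sgRNA in proximal organoids it stood at 105 and 87.6 CPM in WENR-minus against 80.4 and 56.7 CPM in WENR-plus (log2 fold change -0.49, adjusted p = 0.135). On the log2 CPM scale the Pearson correlation of Cldn7 with Cldn3 over the 16 libraries was 0.985, and of the genes most like Cldn7 only Ces2c stood higher (0.986). These points share libraries, depth and the 8 groups, so the correlation is a description of them.

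Cldn4 fell from 309 and 339 CPM to 84.4 and 110 CPM in proximal Scramble-sgRNA organoids (log2 fold change -1.74, SE 0.39, adjusted p = 0.00715), and without replicate 1 in WENR-plus the adjusted p was 0.0521. In distal Scramble-sgRNA organoids it fell from 365 and 393 CPM to 102 and 96.6 CPM (log2 fold change -1.93, adjusted p = 0.00248). In distal Cdx2-sgRNA organoids it fell from 777 and 595 CPM, its highest levels, to 127 and 137 CPM (log2 fold change -2.38, adjusted p = 0.000515). The groups overlapped in proximal Cdx2-sgRNA organoids, at 257 and 127 CPM against 211 and 84.2 CPM (log2 fold change -0.38, adjusted p = 0.573), and replicate 1 was above replicate 2 in either medium.

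Cldn23 changed most among the barrier genes and in all 4 cultures. It fell from 48.5 and 37.8 CPM to 9.60 and 8.58 CPM in proximal Scramble-sgRNA (log2 fold change -2.24, SE 0.26, adjusted p = 0.000286). In distal Scramble-sgRNA organoids it fell from 47.9 and 42.9 CPM to 8.61 and 5.00 CPM (-2.73, adjusted p = 4.54e-05), and in distal Cdx2-sgRNA from 63.9 and 56.9 CPM to 9.63 and 6.88 CPM (-2.87, adjusted p = 1.35e-05). The smallest of the 4 changes was in proximal Cdx2-sgRNA organoids, from 14.6 and 13.3 CPM to 5.22 and 6.66 CPM (-1.23, SE 0.26, adjusted p = 0.0120), a call that was lost without replicate 1 in WENR-plus (adjusted p = 0.0609), without replicate 2 in WENR-plus (adjusted p = 0.0520) and in a fit to the libraries of this comparison alone (adjusted p = 0.133).

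Cldn2 rose in WENR-plus from 4.15 and 2.43 CPM to 76.9 and 77.3 CPM in distal Cdx2-sgRNA organoids (log2 fold change 4.55, SE 0.74, adjusted p = 0.000429). In distal Scramble-sgRNA organoids it rose from 9.08 and 14.98 CPM to 79.8 and 59.1 CPM (2.53, SE 0.66, adjusted p = 0.00960), with an adjusted p of 0.0865 without replicate 1 in WENR-minus. It rose in proximal Cdx2-sgRNA organoids from 32.2 and 37.7 CPM to 163 and 367 CPM (2.92, SE 0.65, adjusted p = 0.0148). The last call was lost without replicate 1 in WENR-minus (adjusted p = 0.0822), replicate 2 in WENR-minus (0.0679) or replicate 2 in WENR-plus (0.101), and in a fit to its own libraries (0.122). In proximal Scramble-sgRNA organoids the media overlapped (log2 fold change 0.35, adjusted p = 0.721).

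Cldn15 rose in WENR-plus in proximal Scramble-sgRNA organoids (79.4 and 93.9 to 225 and 187 CPM; log2 fold change 1.25, SE 0.25, adjusted p = 0.00395). In distal organoids its log2 fold changes passed the test but were under 1, at 0.73 with Scramble-sgRNA (adjusted p = 0.0355) and at 0.95 with Cdx2-sgRNA (adjusted p = 0.00896). Single libraries decided the first of these, which was 0.37 (adjusted p = 0.272) without WENR-minus replicate 1, 0.41 (adjusted p = 0.307) without WENR-plus replicate 1 and 1.21 (adjusted p = 0.00436) without WENR-minus replicate 2. The second was called without WENR-minus replicate 1 (1.09) or WENR-plus replicate 2 (1.01). In proximal Cdx2-sgRNA organoids it stayed between 12 and 16 reads in either medium (log2 fold change 0.03, 95% interval -0.85 to 0.91). Cldn8 rose in proximal Scramble-sgRNA organoids, from 7.13 and 5.63 CPM to 29.6 and 13.1 CPM (1.75, SE 0.45, adjusted p = 0.0136). That call was lost without WENR-plus replicate 1 (log2 fold change 0.99, adjusted p = 0.153), WENR-minus replicate 1 (adjusted p = 0.0580) or WENR-minus replicate 2 (adjusted p = 0.0876). In distal Cdx2-sgRNA organoids Cldn8 was at 56.8 and 85.7 CPM against 35.8 and 43.8 CPM (-0.84, adjusted p = 0.126), without overlap and in the other direction. Cldn8 was level in proximal Cdx2-sgRNA organoids (log2 fold change 0.10, adjusted p = 0.925) and Cldn12 was at 35.3 and 21.6 CPM against 53.2 and 41.5 CPM (0.74, adjusted p = 0.0589), with 1.09 (adjusted p = 0.0203) without WENR-minus replicate 1.

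Cell state markers moved with the medium too. The differentiation markers summed to between 4559 and 11311 CPM in WENR-minus and to between 385 and 824 CPM in WENR-plus in the Scramble-sgRNA and distal Cdx2-sgRNA organoids, and the stem cell markers Lgr5, Ascl2 and Ephb2 to 68.5 to 166 CPM in WENR-minus and to 198 to 360 CPM in WENR-plus over all cultures. The epithelial markers summed to 12000 to 17621 CPM in WENR-minus and to 3915 to 5316 CPM in WENR-plus. The part of these shifts in the claudin values was not tested.

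Whether the medium acted differently with Cdx2 loss was tested as the difference of the log2 fold changes between guides. In proximal organoids 0 of 9 members were called by edgeR, where 3.6% of all tested genes were called. An unadjusted p under 0.05 was found for 8 members and for 3277 of the 15289 tested genes. DESeq2 called 1 member, Cldn2. The differences there were 2.58 for Cldn2 (adjusted p = 0.122), 1.36 for Cldn4 (adjusted p = 0.174), 1.02 for Cldn23 (adjusted p = 0.129), 0.99 for Cldn12 (adjusted p = 0.111) and -1.65 for Cldn8 (adjusted p = 0.147). On leaving out 1 library, the difference for Cldn2 was lowest without Scramble-sgRNA WENR-minus replicate 2 (smaller by over 1.5 times, adjusted p = 0.445) and highest, at 3.52, without Scramble-sgRNA WENR-plus replicate 2. That for Cldn4 lay between 0.55 (without Cdx2-sgRNA WENR-plus replicate 1) and 1.95 (without Cdx2-sgRNA WENR-minus replicate 1), and neither gene was called in any of these fits. Cldn12 was called without Cdx2-sgRNA WENR-minus replicate 1 (1.39, adjusted p = 0.0324). With a block for each culture, which sets the media of 1 mouse, region and guide against each other, 5 members were called, and these were the same 5 genes: Cldn2 (2.34, adjusted p = 0.00815), Cldn4 (1.31, adjusted p = 0.00521), Cldn23 (1.01, adjusted p = 0.0337), Cldn12 (1.01, adjusted p = 0.00776) and Cldn8 (-1.504, adjusted p = 0.0131). Cldn15 was not among them (-1.22, adjusted p = 0.230). The share of all tested genes called with this block is not given here, so the gain is not read as particular to the claudins. The call for these genes thus depended on the fit, and pairing was not the only setting that changed it. Without the filter on low counts, edgeR with no block called the same 5 genes (adjusted p from 2.05e-14 for Cldn2 to 0.0498 for Cldn23). Cldn2 had a difference of 2.63 in that fit and of 2.58 in the main fit. Its smaller p thus came with the change of filter at a nearly unchanged difference, and is not read as stronger evidence. In distal organoids 0 of 9 members and 0% of all tested genes were called by edgeR, and DESeq2 called 0 members. Here 1 member, Cldn8, had an unadjusted p under 0.05, as had 1457 of the 15289 tested genes. The difference for Cldn8 was -1.54 (adjusted p = 0.463), and that of Cldn2 was 2.02 (adjusted p = 0.523).

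Differences of the medium effect between regions were added after the values had been seen. With Scramble-sgRNA, edgeR and DESeq2 called 0 of 9 members, where 0.0719% of all tested genes were called by edgeR. Only 1 member, Cldn2, had an unadjusted p under 0.05, as had 1503 of the 15289 tested genes. With Cdx2-sgRNA, 2 of 9 were called against a background of 17.6%. The difference of proximal minus distal was 2.00 for Cldn4 (SE 0.54, adjusted p = 0.0222) and 1.64 for Cldn23 (SE 0.36, adjusted p = 0.00824), since both fell less in proximal than in distal organoids. Cldn4 lost the call on leaving out any of 5 of the 8 libraries: proximal WENR-plus replicate 1, which took the difference to 1.18 (adjusted p = 0.0899), proximal WENR-minus replicate 2, distal WENR-minus replicate 1 or either distal WENR-plus replicate (adjusted p = 0.0557 to 0.0730). With the culture block Cldn2 was called as well (-1.74, adjusted p = 0.0176, against -1.63 and adjusted p = 0.246 without it).

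The third question was how the regions differed. With Scramble-sgRNA, edgeR called 0 of 9 members between proximal and distal organoids in either medium, where 6.08% of all tested genes were called in WENR-minus and 1.75% in WENR-plus. In WENR-minus 0 members had an unadjusted p under 0.05, against 3984 of the 15289 tested genes, and DESeq2 called 0 members. In WENR-plus 1 member, Cldn2, had such a p, as had 2165 of the 15289 tested genes, and DESeq2 called Cldn2. It stood at 8.55 and 24.3 CPM in proximal against 79.8 and 59.1 CPM in distal organoids (log2 fold change -2.08, SE 0.64, adjusted p = 0.145 by edgeR and 0.0162 by DESeq2). The medians of the members were -0.14 and -0.017, against 0.07 and 0.00 over all tested genes.

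With Cdx2-sgRNA the regions differed in more members. In WENR-minus 7 of 9 were called against a background of 34.6%, with a median of -1.90 against 0.13 over all tested genes. Cldn15 (log2 fold change -5.28), Cldn7 (-2.13), Cldn23 (-2.11), Cldn3 (-1.96) and Cldn4 (-1.84) were lower in proximal organoids, with adjusted p from 8.52e-07 to 0.00264. Cldn2 was higher there (3.41, SE 0.72, adjusted p = 0.00253). Cldn1 had 29 and 6 reads in the distal and 1 and 0 reads in the proximal libraries (adjusted p = 0.0483), and no fold is given because the proximal group lies below the floor of 3 reads. That call was lost whichever of the 4 libraries was left out (adjusted p = 0.0533 to 0.251). Cldn8 was at -1.099 (adjusted p = 0.0512), and it was called with the replicate block (-1.20, adjusted p = 0.0258), by DESeq2 (adjusted p = 0.0257) and without proximal replicate 1 (-1.73, adjusted p = 0.0175). In WENR-plus Cldn15 (-6.20, adjusted p = 7.53e-07), Cldn7 (-1.33, adjusted p = 0.000889) and Cldn3 (-1.18, adjusted p = 0.00160) were lower in proximal organoids, 3 of 9 members against a background of 17%, and the median was -0.31 (-0.47 with Cldn1) against -0.01. Without replicate 2 of the proximal Cdx2-sgRNA libraries Cldn3 stood at -0.93 and lost the call. With the replicate block Cldn1 (14 and 2 reads in distal and 0 in both proximal libraries) and Cldn2 were called as well, making 5 (Cldn2 1.67, adjusted p = 0.0375, against 1.78 and adjusted p = 0.0510 without it), and DESeq2 called Cldn2 too (adjusted p = 0.0116). The share of all tested genes called with that block or by DESeq2 is not given here.

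The make-up of claudin RNA was described per length. Summed over the 10 genes, the mean was 1531 ± 92.9 TPM (SD, n = 2) in proximal Scramble-sgRNA, 1443 ± 5.35 TPM in distal Scramble-sgRNA and 1583 ± 238.2 TPM in distal Cdx2-sgRNA libraries in WENR-minus, against 640 ± 235 TPM in proximal Cdx2-sgRNA. In WENR-plus the 3 former groups stood at 865 ± 44.9, 838 ± 120 and 880 ± 59.4 TPM and proximal Cdx2-sgRNA at 546 ± 89.2 TPM. The pore genes Cldn2 and Cldn15 together made up 4.34 and 5.74% of this sum in proximal Scramble-sgRNA, 3.61 and 6.89% in distal Scramble-sgRNA, 2.38 and 4.13% in proximal Cdx2-sgRNA and 1.46 and 1.38% in distal Cdx2-sgRNA libraries in WENR-minus. In WENR-plus the shares were 26.1 and 22.4%, 24.4 and 21.9%, 13.8 and 37.9%, and 11.9 and 11.8% in the same order. The share was higher in WENR-plus in each culture without overlap between media. In the proximal Cdx2-sgRNA libraries nearly all of it was Cldn2, and in the proximal Scramble-sgRNA libraries most of it was Cldn15.

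**Figure D4:**
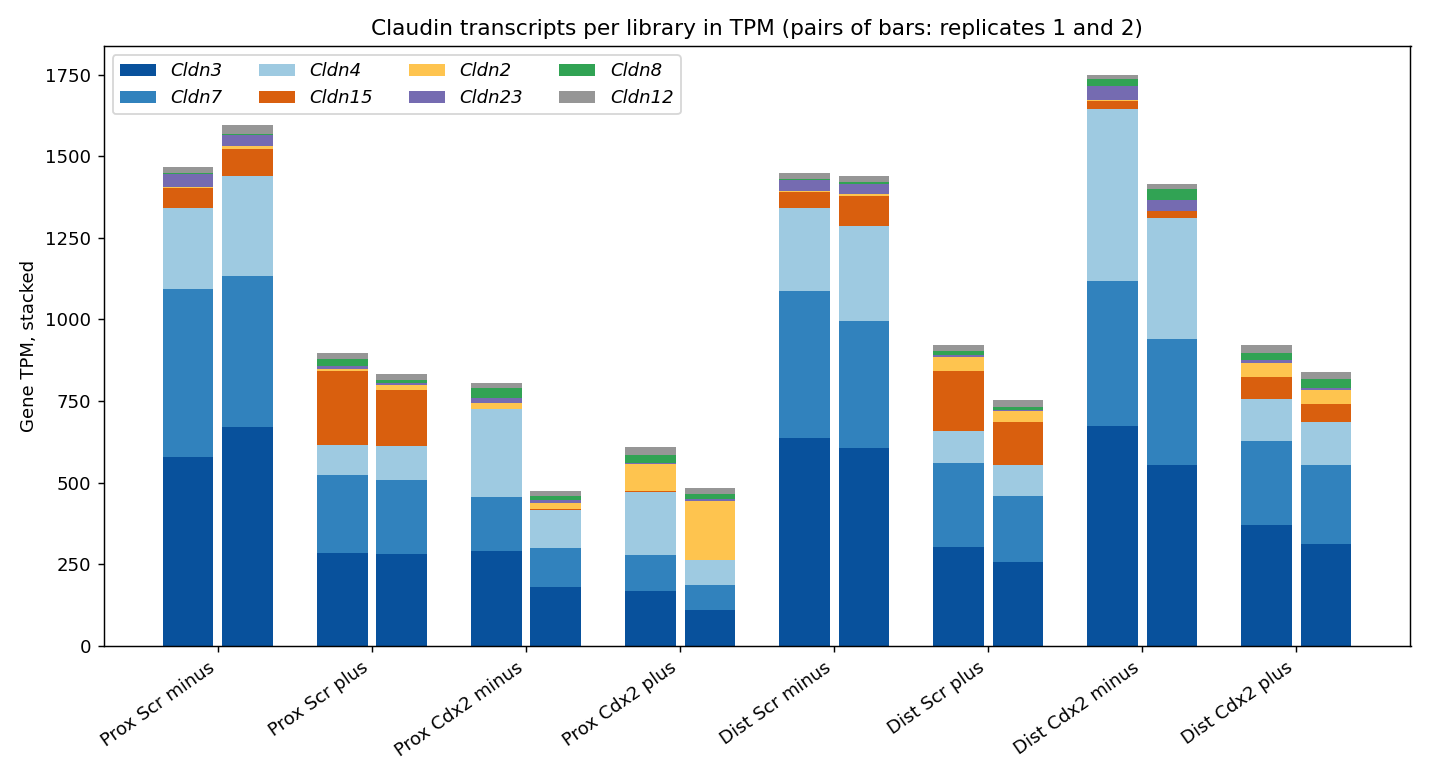
Gene TPM of the claudins stacked per library, with replicates 1 and 2 side by side in each group. The stacks reach 1414 to 1751 TPM in 6 of the 8 WENR-minus libraries and 474 and 806 TPM in the proximal Cdx2-sgRNA ones.

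The transcripts behind these genes were read where a gene had at least 50 reads. Cldn15-201 held at least 56.9% of Cldn15 in the 12 libraries outside the proximal Cdx2-sgRNA groups, and Cldn15-202, which starts further upstream, held up to 43.1%. Cldn7-201 held 85.1 to 97.8% of Cldn7 and Cldn2-201 at least 97.0% of Cldn2. Cldn12 was divided between Cldn12-201 (25.2 to 66.0%) and Cldn12-202 (23.4 to 64.8%), and replicates could lie far apart, as with 31.5 and 65.9% for Cldn12-201 in distal Cdx2-sgRNA in WENR-minus. Cldn3, Cldn4 and Cldn8 had 1 annotated transcript each, and of the 2 of Cldn23 only Cldn23-201 held reads. Cldn3 (chromosome 5, 134986214 to 134987472, plus strand) and Cldn4 (chromosome 5, 134945119 to 134946934, minus strand; GRCm38) are neighbours in the genome, and their correlation over the 16 libraries was 0.827, below that of Cldn3 with Cldn7 on chromosome 11.

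For each member the genes with the closest log2 CPM pattern over the 16 libraries were listed among 9907 genes, as a description. Aldh1b1 (r = 0.982) and Insc (r = 0.976) were nearest to Cldn15. Gsta3 (r = 0.923) and Lman1 (r = 0.912) were nearest to Cldn2. For Cldn3 these were Tep1 and Naip2 (both r = 0.991), for Cldn4 Ap3s1 (0.980) and Lysmd3 (0.979), and for Cldn23 Clptm1 (0.989) and Borcs6 (0.988). Cldn8 (Rnf169, 0.871), Cldn12 (Tmed3, 0.885) and the sparse Cldn1 (Maob, 0.865) had looser neighbours.

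Other genes of the junction were read from a list of 31, of which 29 were tested. With the Cdx2-sgRNA in proximal organoids in WENR-minus 6 of the 29 fell and 3 rose, where 21.2% of all tested genes were called in either direction. Ildr1, a protein of tricellular contacts, went from 330 and 282 CPM to 24.3 and 17.9 CPM (log2 fold change -3.86, adjusted p = 8.22e-07). Epcam, an adhesion protein that binds and stabilises claudin-7, went from 1874 and 1795 CPM to 445 and 508 CPM (-1.94, adjusted p = 1.10e-05). Marveld3, Marveld2, Crb3 and Ybx3 fell by 1.103, 1.04, 1.05 and 1.45 on the log2 scale. Cgnl1, a cytoplasmic scaffold, rose (1.45, adjusted p = 0.00257), and so did Esam, an adhesion protein best known from endothelium, from 0 reads in the controls to 3.04 and 2.59 CPM. In proximal organoids in WENR-plus 1 fell (Ildr1, -1.75, adjusted p = 0.000218) and 4 rose, among them Cgnl1, Esam and Jam2 (Jam2 at 0.638 and 22.4 CPM against at most 0.0956 CPM), 5 of 29 beside 15.9% of all tested genes. In distal organoids 1 fell (Ybx3, -1.99) and 3 rose (Lsr 1.69, Cgnl1 1.32 and Tjp1 1.14) in WENR-minus (5.25% of all tested genes). There edgeR called 0 in WENR-plus (0.262%). In that medium 6 of the 29 had an unadjusted p under 0.05, beside 973 of the 15289 tested genes.

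With WENR-plus 10 of the 29 fell in proximal Scramble-sgRNA, 12 in distal Scramble-sgRNA and 15 in distal Cdx2-sgRNA organoids, and the called genes of these 3 comparisons all fell, where 17%, 26.4% and 33.1% of all tested genes were called in either direction. In proximal Cdx2-sgRNA organoids 1 fell (Tjp3, -1.21, adjusted p = 0.00116) and 1 rose (Esam, 2.56, adjusted p = 0.0364), beside 6.4% of all tested genes. The medians over the 29 were -0.62, -0.95, -1.13 and -0.38 in proximal Scramble-sgRNA, distal Scramble-sgRNA, distal Cdx2-sgRNA and proximal Cdx2-sgRNA organoids. Ocln, the transmembrane protein occludin, fell from 265 and 290 CPM to 114 and 147 CPM in proximal Scramble-sgRNA (-1.09, adjusted p = 0.000973), and it also fell in distal Scramble-sgRNA (adjusted p = 0.000396) and, by 1.84 on the log2 scale, in distal Cdx2-sgRNA organoids. Marveld3, Cxadr, Ildr1, Crb3, Pard6b, Magi3, Cgn and Igsf5 fell in the same 3 comparisons. Tjp3, Mpp5 and Epcam fell in both distal ones, Tjp1 in proximal Scramble-sgRNA and distal Cdx2-sgRNA, and F11r and Patj in distal Cdx2-sgRNA organoids.

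Of 22 further claudin genes 3 were tested, Cldn9, Cldn11 and Cldn14, and together the 22 did not exceed 2.63 CPM in any library. Cldn14 had 3 to 7 reads in the proximal Scramble-sgRNA libraries and 0 in the proximal Cdx2-sgRNA ones, and it was called lower with the Cdx2-sgRNA in both media (adjusted p = 0.0226 in WENR-minus and 0.00563 in WENR-plus) at counts near the floor of 3 reads. Its highest values were 40 and 45 reads in distal Scramble-sgRNA libraries in WENR-plus.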

How the data were processed

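RNA-seq of 16 mouse colon organoid libraries was analysed from the processed tables. Per the labels and the methods, the authors made stranded total RNA libraries with a SMARTer kit and quantified them against GENCODE vM23 transcripts. The submitters' processing notes name Salmon (1.1 and 1.1.0), DESeq2 1.32 and the build mm10. Each library has 1 table of transcripts, in which the authors deposited Salmon's estimated counts, not scaled between libraries. The TPM column of the same deposited tables was summed per gene and used for levels between genes.

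Of 140748 transcripts, 139864 were matched to GENCODE vM21 (GRCm38), an earlier release, and summed to 54123 genes. The 884 others held at most 0.509% of a library. Counts were rounded. Genes were kept by filterByExpr and tested with edgeR 4.0.16 in R 4.3.3 (TMM scaling, 1 coefficient per group, glmQLFit with prior count 0.125 and 8 residual degrees of freedom, glmQLFTest, Benjamini-Hochberg adjustment within each contrast over 15289 genes). A call needs an adjusted p below 0.05 together with a log2 fold change above 1 in size. The SE is the absolute log2 fold change over the square root of F, and intervals are at 95%. There were 12 comparisons and 6 differences of log2 fold changes, 2 of them added after the values had been seen. The code was tested on simulated counts.

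The members and the gene lists were chosen with earlier results of these data known. The rule named all 10 members, Cdx2, the cell state markers, tested genes among other claudins, other junction genes called for Cdx2 loss or medium, and the 2 genes most like each member (at least 5 CPM on average, prior count 2).

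The methods state that replicates are independent mice and that the organoids came from 2 mice, so replicate numbers were read as marking the mouse, although no source states it for each library. Replicate differences correlated at r = 0.281 to 0.589 between the media of the same region and guide (4 of 4 pairs of groups over 0.1) and at -0.06 to 0.19 in the 24 other pairs. The test used no block, and blocked fits were alternatives.

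Alternatives were RLE size factors, no filter, at least 10 counts in every library, DESeq2 1.42.0, length-scaled counts, a replicate block, the libraries of a comparison alone, no fold change threshold, leaving out each library and, added after seeing the data, a block for each culture. Replicates differed by more than sampling noise in every group (chi-square per degree of freedom at least 32.1), so none was a copy of the same library. This check cannot tell separate mice from separate preparations of the same culture. Protein sequences and the promoters of Cldn8 and Cldn23 were not used here. A further junction gene is counted in its list and not reported here by name.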

Additional observations from a re-analysis of the deposited data

Results flagged for a closer look

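In each of these results a change differed between groups by a test of the difference itself. The log2 fold change with the Cdx2-sgRNA differed between proximal and distal organoids (proximal minus distal) in WENR-minus by -5.04 for Cldn15, -2.08 for Cldn7, -2.04 for Cldn23, -1.75 for Cldn3 and 3.31 for Cldn2. In WENR-plus it differed by -6.48 for Cldn15, -1.31 for Cldn7, -1.17 for Cldn3 and 3.87 for Cldn2. The log2 fold change with the medium differed between proximal and distal Cdx2-sgRNA organoids by 2.00 for Cldn4 and 1.64 for Cldn23. Leaving out any library kept the calls of Cldn15 in both media, of Cldn7, Cldn23 and Cldn3 in WENR-minus for Cdx2 loss, and of Cldn23 for the medium, whereas the other 5 were lost without at least 1 library.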

How the results depend on the processing

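Of 1103 recomputed fold changes, 988 kept their direction and their side of the threshold, 53 lost a call, 54 gained one and 8 reversed. The reversals all came from leaving out 1 library of a change that was not called. Without 1 library, the log2 fold change for the medium ranged from -0.61 to 1.71 for Cldn2 in proximal Scramble-sgRNA organoids, and in proximal Cdx2-sgRNA organoids from -0.042 to 0.097 for Cldn15, from -1.20 to 0.17 for Cldn4 and from -0.35 to 0.70 for Cldn8. Of 49 called changes, 34 kept the call whichever library was left out and 15 lost it at least once. Leaving out 1 library gained 15 calls in 13 fold changes. Those not given with the results were Cldn2 between regions with Cdx2-sgRNA in WENR-plus without proximal replicate 1, and, for the medium by region with Cdx2-sgRNA, Cldn7 without proximal WENR-plus replicate 2 and Cldn3 without that library or proximal WENR-minus replicate 1. Of 248 recomputed counts of called claudins, 217 were within 1.5 times the reported count. Without the filter on low counts the count was 2 for Cdx2 loss in distal organoids in WENR-plus, 1 and 5 for the regions in WENR-plus with Scramble-sgRNA and Cdx2-sgRNA, 5 and 2 for the medium by Cdx2 loss in proximal and distal organoids, and 1 for the medium by region with Scramble-sgRNA. Calls over all genes rose as well. For Cdx2 loss in distal organoids in WENR-plus, 371 genes were called higher and 215 lower without the filter, against 21 and 19 in the main fit. The other recomputed counts in this paragraph stand without the share of all genes in their setting. They are therefore not read as results about the claudins. DESeq2 called 1 for Cdx2 loss in distal organoids in WENR-plus, 1 for the regions with Scramble-sgRNA in WENR-plus and 1 for the medium by Cdx2 loss in proximal organoids. With only the libraries of a comparison the count was 0 for the medium in proximal Cdx2-sgRNA organoids, 2 for Cdx2 loss by region in WENR-plus and 1 for the medium by region with Cdx2-sgRNA. With the replicate block 5 were called between regions with Cdx2-sgRNA in WENR-plus, and with the block for each culture 5 for the medium by Cdx2 loss in proximal organoids. Beside the changes of call given with the results, neither block changed the call of a named fold change. Leaving out 1 library gave 0 to 2 calls for Cdx2 loss in distal organoids in WENR-minus, 0 to 2 for the medium in proximal Cdx2-sgRNA organoids, 1 to 4 for Cdx2 loss by region in WENR-plus, 0 to 1 for the medium by Cdx2 loss in proximal organoids and 1 to 4 for the medium by region with Cdx2-sgRNA. The cause of these differences was not tested. With 2 libraries a group, a library left out leaves its group with 1, which is then assumed to vary like the others, and Cldn1 and the low Cldn15 reads limit what depth can show.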
